A study of Caenorhabditis elegans with 2 samples.

Results

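The nuclear hormone receptor genes outside chromosome V were examined for binding of the GATA factor ELT-1 in Caenorhabditis elegans. They were taken as the protein-coding genes of the WBcel235 annotation that are not on V and whose symbol is nhr- followed by digits, leaving out nhr-23 and nhr-25. This rule found 100 genes of the 19973 protein-coding genes on the nuclear chromosomes, with 22 on I, 15 on II, 8 on III, 33 on IV and 22 on X. It uses names and positions alone and no measured value. Chromatin bound by the factor was precipitated and sequenced (ChIP-seq) from whole L2 larvae of mixed sex from strain OP354, which carries the unc-119 allele tm4063 and the inserted transgene wgIs354 for eGFP-tagged elt-1. There was 1 group of 2 biological replicates and no comparison group, so the 2 replicates were set side by side and no condition was compared. Signal from whole larvae is an average over all tissues, and the tagged protein comes from a transgene beside any product of the animal's own gene. The files give no read depth, and with 2 replicates every SD is itself imprecise.

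Nuclear hormone receptors are transcription factors that pair a zinc finger DNA-binding domain with a ligand-binding domain, and many change their activity when a small lipophilic molecule binds. Nematodes carry an unusually large family of them, most of it expanded from a receptor related to HNF4, and a smaller set with relatives in insects and vertebrates. In the worm, receptors of this family act in molting, in fat and sterol metabolism, in responses to diet and toxins, and in larval timing. ELT-1 is a zinc finger GATA factor that specifies epidermal fate in the embryo, and GATA factors bind short sites with the core GATA.

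Of the deposited lists, the pooled ranked list holds 30000 regions, and the thresholded list holds 351 of them, called peaks below. The authors cut that list by a test of reproducible rank, and it holds exactly the first 351 regions by pooled signal. Being a peak thus does not say that a region ranked high in each replicate. A region was given to a receptor gene when its summit lay between 5 kb upstream of the gene start and the gene end, and the promoter was taken as 1000 bp upstream to 200 bp downstream of that start. By this rule 22 of the 100 genes held 25 distinct peaks, and the windows of 50 bp on each side of the summit are shown here for those that represent the forms found. The strand is the plus strand of WBcel235, the letters come from the RefSeq genome, and capitals mark a GATA site, which is the word AGATAA, the word AGATAG, the word TGATAA or the word TGATAG on either strand. Such a site lay in 52.9% of the peaks outside V and in 20.8% of the ranked regions there. The first set shows summits that hold such a site: the strongest receptor peak (nhr-17), peaks in introns (nhr-43, nhr-48 and nhr-91), a promoter peak (nhr-119) and upstream peaks (nhr-46, nhr-35 and nhr-1).
nhr-17 (chrX:12671786-12671886): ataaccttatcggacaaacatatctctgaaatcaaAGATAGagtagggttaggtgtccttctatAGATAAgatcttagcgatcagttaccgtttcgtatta
nhr-43 (chrIV:11900518-11900618): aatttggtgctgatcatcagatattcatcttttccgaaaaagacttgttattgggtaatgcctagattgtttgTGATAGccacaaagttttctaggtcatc
nhr-48 (chrX:15713301-15713401): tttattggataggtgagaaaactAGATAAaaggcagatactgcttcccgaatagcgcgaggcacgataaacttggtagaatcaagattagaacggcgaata
nhr-119 (chrII:2800906-2801006): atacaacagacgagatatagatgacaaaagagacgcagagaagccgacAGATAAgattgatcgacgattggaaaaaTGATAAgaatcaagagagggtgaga
nhr-91 (chrX:15311124-15311224): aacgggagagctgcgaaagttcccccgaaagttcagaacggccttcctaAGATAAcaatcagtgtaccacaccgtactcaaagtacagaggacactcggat
nhr-46 (chrIV:5758826-5758926): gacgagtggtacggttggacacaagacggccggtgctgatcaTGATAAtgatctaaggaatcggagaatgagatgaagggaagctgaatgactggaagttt
nhr-35 (chrX:4529143-4529243): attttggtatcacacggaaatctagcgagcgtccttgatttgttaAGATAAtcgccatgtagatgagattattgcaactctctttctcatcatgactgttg
nhr-1 (chrX:17510726-17510826): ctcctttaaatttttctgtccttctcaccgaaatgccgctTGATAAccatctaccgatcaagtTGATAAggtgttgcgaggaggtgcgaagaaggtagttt

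The second set shows summits with no such site in the window, which include the strongest promoter peak (nhr-32), an intronic peak of nhr-34 and an upstream peak of nhr-138. No match says only that these letters are not in this window.
nhr-32 (chrX:13251354-13251454): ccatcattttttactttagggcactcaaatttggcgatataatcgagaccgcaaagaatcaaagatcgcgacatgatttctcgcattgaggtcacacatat
nhr-34 (chrIV:9670163-9670263): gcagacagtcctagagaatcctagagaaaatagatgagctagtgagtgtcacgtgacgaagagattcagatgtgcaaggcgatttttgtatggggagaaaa
nhr-138 (chrIV:9723334-9723434): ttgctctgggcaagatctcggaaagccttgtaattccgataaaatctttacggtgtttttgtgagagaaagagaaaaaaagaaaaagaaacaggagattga

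The receptor genes were more often near a peak than the average gene. A peak lay from 5 kb upstream to the gene end in 22 of the 100 genes (exact 95% interval 14.3 to 31.4), against 2.58% of the 14979 protein-coding genes outside V. In the promoter a peak lay in 8 of the 100 (exact 95% interval 3.52 to 15.2), against 0.848% of those genes. These intervals cover the counting of genes only, and no test was made of the difference, since the list was chosen with results of these data known. The promoter count was 5 with a shorter promoter of 500 bp before to 100 bp after the start (0.507% of all genes) and 4 with the first 175 peaks alone (0.387%). It was 5 from the list of replicate 2 alone, without replicate 1 (0.828%), and the count up to the gene end fell from 22 to 14 with the first 175 peaks (1.36%).

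Receptor genes are longer than the average gene, which widens the interval searched. Their median length was 3036 bp, against 2160 bp over all protein-coding genes outside V, and the 22 with a peak had a median of 4402 bp against 2804 bp for the other 78. Counted per length, the joined intervals of the receptors covered 934 kb and held 26.8 peaks per Mb, against 3.74 per Mb over the 79.3 Mb of the genome outside V. Ranked regions of any strength differed less, at 424 per Mb against 306 per Mb. Any ranked region lay in the interval of 93 receptors (background 89.9%) and in the promoter of 50 (background 38.1%). Of the 50 with a ranked promoter region, 8 had a peak there, against 2.23% of the 5705 genes with such a region.

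The strongest region of each receptor ran from 6.05 to 115.4 in pooled signal, with a median of 12.2 over the 93 genes with a region and an upper quartile of 22.7. Over all 13459 such genes outside V the median was 9.59 and the upper quartile 11.8. In the promoter alone the receptors' median was 9.16 (n = 50, upper quartile 19.9) against 8.28 over all genes (upper quartile 10.5). The medians lay closer together than the upper quartiles in both windows. The genes nhr-69, nhr-73, nhr-259, nhr-244 and nhr-276 on I, nhr-242 on IV and nhr-281 on X held no ranked region at all.

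**Figure D1:**
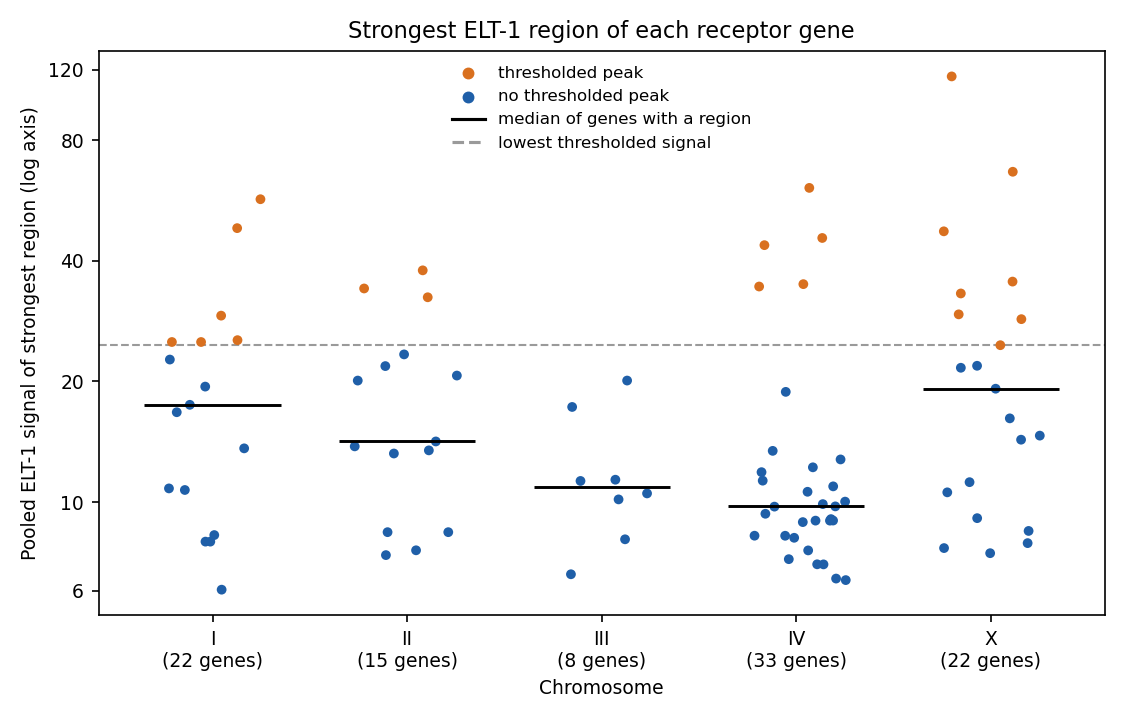
Pooled ELT-1 signal (log axis) of the strongest ranked region from 5 kb upstream to the gene end, for the 93 receptor genes with a region, by chromosome. Orange points are the 22 genes with a thresholded peak, black lines are medians over the genes with a region, and the dashed line is the lowest thresholded signal, 24.6; none of the genes on III reach it.

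The 8 genes with a promoter peak were nhr-32, nhr-265, nhr-119, nhr-61, nhr-137, nhr-169, nhr-89 and nhr-81, and they held 7 distinct peaks. The strongest lay 560 bp upstream of nhr-32 on X (13251272 to 13251535, pooled signal 66.7, rank 27). Since signal has a scale of its own in each list, a replicate's value is given as a fold over the median of all regions in that replicate's list. By this measure the nhr-32 peak stood at 9.24-fold in replicate 1 and 4.41-fold in replicate 2, a mean of 6.82 ± 3.41-fold (SD, n = 2). It was above the median region in both, with the largest SD of the 25 peaks.

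A peak 92 bp upstream of nhr-265 on I (12251682 to 12251945, pooled signal 48.2) reached 6.90-fold in replicate 1 and 3.30-fold in replicate 2, a mean of 5.10 ± 2.54-fold (SD, n = 2). At nhr-119 on II the summit lay 356 bp upstream (2800824 to 2801087, pooled signal 37.9), at 6.01-fold and 2.08-fold, a mean of 4.05 ± 2.78-fold. AGATAA spans that summit and TGATAA lies farther on, as the first set of sequences shows, and the peak was the single ranked region in the whole interval of nhr-119. The peak at nhr-61 on II (14818408 to 14818671, pooled signal 34.1) lay at the gene start itself, 3 bp inside the gene in an exon, at 4.09-fold and 2.90-fold. The peak of nhr-137 on X (6669432 to 6669695, pooled signal 28.0) lay 553 bp upstream, at 4.34-fold and 2.04-fold.

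The remaining promoter peaks lay between neighbouring receptors on I. A single peak (12442067 to 12442330, pooled signal 25.4) stood 100 bp upstream of nhr-169 and 946 bp upstream of nhr-89, which is transcribed the other way, and counts for both genes. It reached 3.19-fold in replicate 1 and 2.00-fold in replicate 2, a mean of 2.59 ± 0.838-fold (SD, n = 2). Another (12329466 to 12329729, pooled signal 25.1) stood 104 bp upstream of nhr-81 and 1487 bp upstream of nhr-165 on the other strand. It was 1 of 2 receptor peaks with the higher fold in replicate 2, at 2.39-fold in replicate 1 and 3.12-fold in replicate 2.

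Upstream of the promoter, in a stretch longer than the promoter window, lay 13 pairs of a gene and a peak, of 157 pairs with a ranked region there, against 8 of 63 in promoters. Over all ranked regions outside V 1.22% were peaks. Shares by place over all genes are not given here, so these counts are not read as particular to the receptors. In 12 of the 13 upstream pairs no other protein-coding gene lay between the peak and the receptor. The strongest receptor peak of all, rank 6 of the 30000 regions, lay 3982 bp upstream of nhr-17 on X (12671779 to 12671873, pooled signal 115.4). It reached 12.4-fold in replicate 1 and 9.64-fold in replicate 2, a mean of 11.0 ± 1.93-fold (SD, n = 2), with AGATAG and AGATAA on either side of the summit. It ranked 7 and 8 in the replicates, and nhr-17 had no ranked region in its promoter.

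A second peak of nhr-32 lay 3515 bp upstream (13248317 to 13248580, pooled signal 66.3), almost equal in pooled signal to the one in the promoter. It reached 9.08-fold in replicate 1 and 4.70-fold in replicate 2, a mean of 6.89 ± 3.09-fold (SD, n = 2). Its summit is 12 bp from the start of K08H2.7, a gene nearer to it than nhr-32. On I, a peak 3506 bp upstream of nhr-169 (12438661 to 12438924, pooled signal 57.0) reached 7.38-fold and 4.17-fold. It lies beyond the 3' end of nhr-89, which stands between it and nhr-169.

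The peak 3410 bp upstream of nhr-267 on IV (9289683 to 9289946, pooled signal 43.8) reached 5.39-fold in replicate 1 and 2.51-fold in replicate 2. The others upstream were weaker, from 24.6 to 35.0 in pooled signal, at nhr-138, nhr-46, nhr-71, nhr-88, nhr-137, nhr-35, nhr-61, nhr-165 and nhr-1. That of nhr-71 on X, 2575 bp upstream (13744608 to 13744871), was the other receptor peak with the higher fold in replicate 2, at 3.32-fold and 3.85-fold, and its SD of 0.373 around a mean of 3.58-fold was the smallest of the 25. The upstream peak of nhr-137, 2886 bp away, is closer to the start of the cuticle collagen gene col-172, in whose promoter it lies 922 bp from the start. Upstream peaks of nhr-88 (2605 bp) and nhr-138 (1867 bp) reached 3.54 ± 0.701-fold and 3.49 ± 0.878-fold (SD, n = 2).

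Inside the receptor genes and beyond the promoter window, 6 peaks lay in introns and 0 in exons; the peak at the start of nhr-61 is exonic but counts as a promoter peak. Exons beyond the promoter window held 58 ranked regions of the receptors, and a count of 0 peaks there allows a share of up to 5.17%, for counting error only. Of all ranked regions outside V 1.22% were peaks, so this 0 is no departure from that share. Of the 396 distinct receptor regions 6.31% were peaks, which is above the limit of 5.17%. Whether receptor exons differ from the other places was not tested. Introns held 144 pairs of a receptor and a ranked region. The same split over all genes is not given here. An intronic peak of nhr-43 on IV, 978 bp from the gene start (11900436 to 11900699, pooled signal 60.8), reached 6.998-fold in replicate 1 and 5.05-fold in replicate 2, a mean of 6.03 ± 1.37-fold (SD, n = 2). It stood in the first 100 regions of both replicates, with ranks 59 and 32. In nhr-48, a receptor related to DAF-12, a peak 5138 bp into the gene (X, 15713219 to 15713482, pooled signal 47.4) reached 7.17-fold and 2.39-fold. The mean of 4.78-fold carries an SD of 3.38 (n = 2), the next largest after nhr-32.

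The gene nhr-34 on IV held a pair of intronic peaks. They lay 5459 bp and 1471 bp from its start, with pooled signals of 45.6 and 32.3 and folds of 5.08 ± 2.13 and 2.96 ± 0.403 (SD, n = 2). The gene lies 44.1 kb from elt-1, the gene carried by the transgene, and its 8 ranked regions below the threshold had a median signal of 9.02, against 7.81 over all ranked regions. At the other receptors on IV with a peak, this median was 8.04 at nhr-138 (105 kb from elt-1) and 7.72 at nhr-267 (329 kb). It was 8.38 at nhr-43 (2279 kb) and 9.20 at nhr-46 (3857 kb). On the other chromosomes it ran from 6.98 at nhr-88 to 14.4 at nhr-48. The extent of the insert is not given in the sources used here, and whether transgene copies add to the signal at nhr-34 was not tested. In nhr-91, related to the vertebrate germ cell nuclear factor, a peak 1805 bp into the gene (X, 15311042 to 15311305, pooled signal 35.5) reached 5.02-fold in replicate 1 and 1.90-fold in replicate 2, and AGATAA spans its summit. In nhr-49, a regulator of fat metabolism, a peak 590 bp into the gene (I, 9870109 to 9870372, pooled signal 29.2) reached 4.45-fold in replicate 1 and 1.58-fold in replicate 2. It falls in the promoter window of an internal transcript start of nhr-49, so that 9 receptors had a promoter peak when any annotated transcript start was used (0.935% of all genes outside V).

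**Figure D2:**
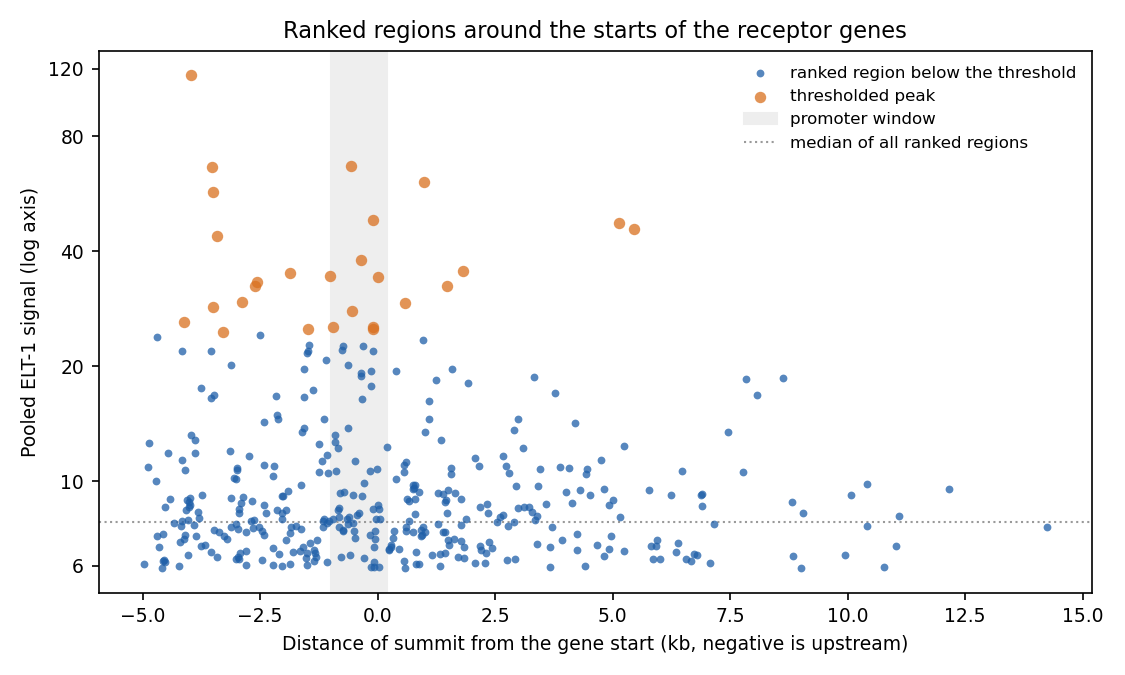
Pooled signal (log axis) of the ranked regions of the receptor genes against the distance of the summit from the gene start in kb. Orange points are thresholded peaks and the shaded band is the promoter window; 25 regions farther than 15 kb into nhr-27, whose annotated length is 102756 bp, are not drawn, and the strongest point lies 3982 bp upstream of nhr-17.

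By distance from the gene start, the bins with the most receptors holding a peak were the first 1000 bp upstream, with 7 of 100 (background 0.781%), and the stretch from 3 to 4 kb upstream, with 6 of 100 (background 0.334%). Those 6 were nhr-17, nhr-32, nhr-169, nhr-267, nhr-35 and nhr-1. Both bins between 1 and 3 kb upstream held a peak in 3 receptors (background 0.354% nearer the start and 0.374% farther), and the bin from 4 to 5 kb in 1 (0.294%). With counts this small the bins are not separated from each other. Ranked regions of any strength lay in 29 to 46 of the 100 receptors per upstream bin and in 28.2% to 32.4% of all genes.

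**Figure D3:**
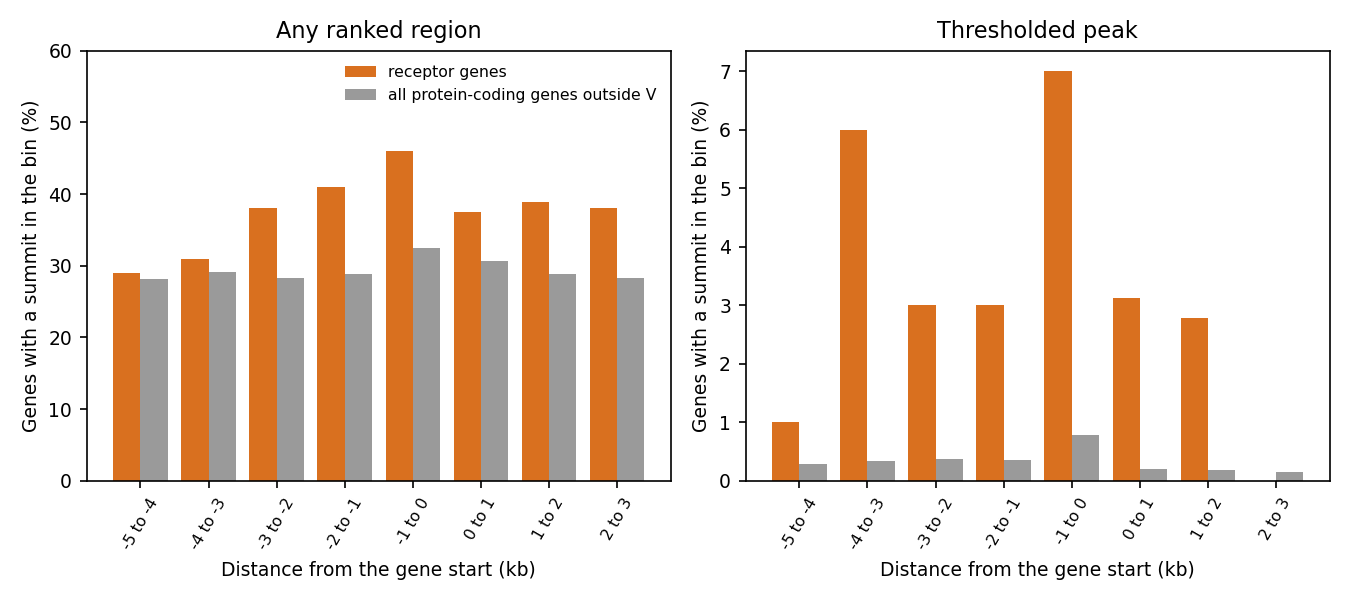
Share of genes (%) with any ranked region (left) or a thresholded peak (right) whose summit lies in each bin of 1 kb from the gene start, for the receptor genes (orange) and all protein-coding genes outside V (grey). Bins inside the gene count the genes at least as long as the bin's end, and the highest orange bars on the right stand for 7 and 6 of 100 genes.

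Among the receptors listed by known relatives or functions, nhr-48, nhr-91 and nhr-49 had a peak, with nhr-48 listed by its relatives alone. For scale, a peak lay in 22% of all 100 receptors and in 2.58% of all protein-coding genes outside V. In promoters the shares were 8% and 0.848%. Each role list is too short for its counts to be separated from the receptor shares. Of 7 receptors with relatives in insects and vertebrates, 0 had a promoter peak and 2, nhr-48 and nhr-91, had one elsewhere. The other 5 had strongest regions of 17.5 at nhr-85 (related to E75 and Rev-erb, and part of larval timing), 12.2 at nhr-41 (related to insect HR78), 11.9 at nhr-67 (related to tailless), 11.3 at nhr-6 (of the NR4A type) and 9.76 at nhr-8 (sterol and toxin responses). The region of nhr-85, 3757 bp upstream, differed widely between replicates, with rank 29198 in replicate 1 and rank 380 in replicate 2. At nhr-41 and nhr-8 a matching summit was found in replicate 2 alone, and at nhr-6 in replicate 1 alone.

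Of 9 receptors of metabolism, diet and stress, nhr-49 was the single gene with a peak, where 22% of all 100 receptors had one. Next came nhr-14, which controls iron uptake, with a region 1494 bp upstream (pooled signal 21.6) that ranked 251 in replicate 1 and had no summit within 100 bp in replicate 2. The promoter region of nhr-66, a partner of NHR-49, had a signal of 18.8 with 2.09-fold in replicate 1 and 1.60-fold in replicate 2. The strongest regions of nhr-10 (propionate breakdown), nhr-62 (response to dietary restriction), nhr-80 (fatty acid desaturation) and nhr-45 had signals of 17.3, 13.6, 10.2 and 7.68. For nhr-45 this is under the median ranked region, and no summit matched it in either replicate. The regions of nhr-62 and nhr-80 had a matching summit in replicate 1 alone. Of 7 receptors of development, nhr-91 alone had a peak, beside the same 22% of all receptors. Of the others not yet described, nhr-40 (embryonic morphogenesis) had a strongest signal of 14.3, nhr-31 (excretory canal) of 13.4 and nhr-2 (early embryo) of 10.7. A matching summit was found in replicate 1 alone for nhr-40 and nhr-31, and in replicate 2 alone for nhr-2.

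Every one of the 25 receptor peaks had a summit within 100 bp in both replicates, against 282 of the 297 peaks outside V (94.9%). The fold ran from 2.39 to 12.4 in replicate 1, with a median of 4.45, and from 1.24 to 9.64 in replicate 2, with a median of 2.67. For all peaks outside V the medians were 4.32 and 2.85. Replicate 1 had the higher fold in 23 of the 25 and in 82.3% of the matched peaks outside V. Among the first 351 regions of their own lists, 20 of the 25 stood in replicate 1, 15 in replicate 2, 13 in both and 3 in neither. Of all peaks outside V, 79.1% stood in replicate 1, 65.7% in replicate 2 and 51.2% in both, close to the receptor shares.

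The widest split was at nhr-35 on X, where the upstream peak ranked 217 in replicate 1 and 7608 in replicate 2, at 3.88-fold and 1.24-fold. The peak of nhr-49 ranked 169 and 2855, that of nhr-1 ranked 439 and 1412, and that of nhr-91 ranked 136 and 1167. Taking the first 351 regions of each replicate as its peaks, 13 receptors held one in both replicates, against 1.45% of all protein-coding genes outside V. These were nhr-17, nhr-32, nhr-34, nhr-43, nhr-46, nhr-48, nhr-61, nhr-71, nhr-88, nhr-138, nhr-169, nhr-265 and nhr-267. In the promoter, 6 receptors held such a region in replicate 1 (0.801% of all genes) and 5 in replicate 2 (0.828%), of which 5 and 4 were among the 8 with a promoter peak.

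**Figure D4:**
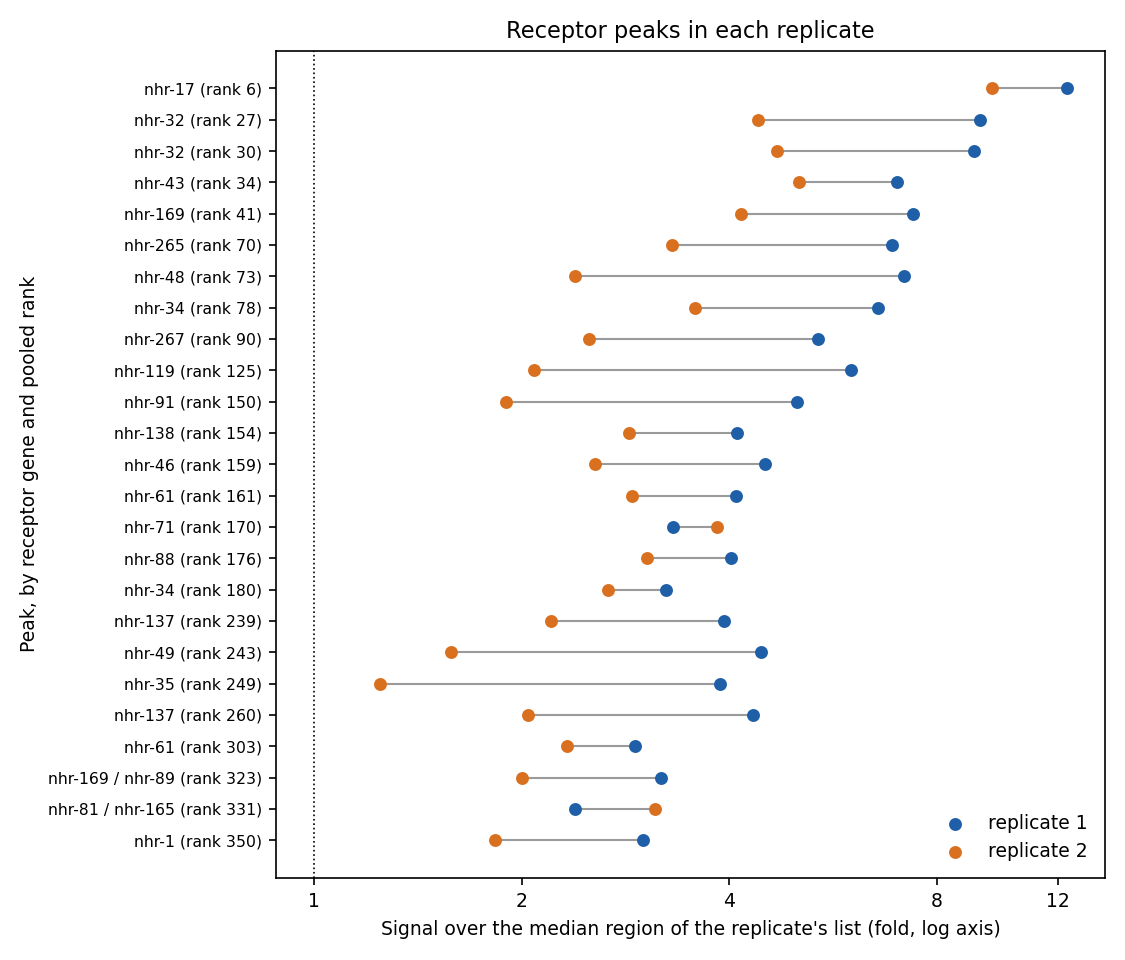
Signal of the 25 receptor peaks, divided by the median of all regions in the same replicate's list (fold, log axis), replicate 1 in blue and replicate 2 in orange, ordered by pooled rank. Replicate 1 is higher in 23 of the 25; the exceptions are the peaks at nhr-71 and between nhr-81 and nhr-165.

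Of the 25 receptor peaks, 16 had a GATA site no farther than 50 bp from the summit (64.0%, exact 95% interval 42.5 to 82.0). The share was 52.9% over the 297 peaks outside V and 20.8% over all 24318 ranked regions outside V with windows of the same length. The receptor share is not separated from that of all peaks, which lies inside its interval. A site was counted when all of it lay in the window, and these 16 peaks held 19 sites. AGATAA occurred in 10 of the 25 peaks (32.0% of all peaks and 7.01% of all ranked regions outside V). AGATAG occurred in 4 (12.5% of all peaks outside V), TGATAA in 3 (13.1%) and TGATAG in 1 (5.72%). Pairs of sites were found at nhr-17, nhr-119 and nhr-1, and the share of such pairs over all peaks is not given here.

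Peaks in receptor promoters had few such sites. A site lay in 1 of the 7 promoter peaks, that of nhr-119, and in 15 of the 18 peaks upstream or in introns. With 100 bp on each side the counts were 2 of 7 and 15 of 18. Counted by the promoters of any protein-coding gene, a site lay in 3 of 9 receptor peaks in a promoter (33.3%) and in 13 of 16 elsewhere (81.3%). By the same rule the split over all peaks outside V was smaller, with 44.5% of 110 peaks in a promoter of any protein-coding gene and 57.8% of 187 peaks elsewhere. This split among the receptor peaks was noticed in the data and rests on 7 peaks, so the exact 95% interval of the promoter share runs from 0.361% to 57.9%. The 3 peaks without a site outside receptor promoters were those upstream of nhr-169 and nhr-138 and the stronger intronic peak of nhr-34.

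**Figure D5:**
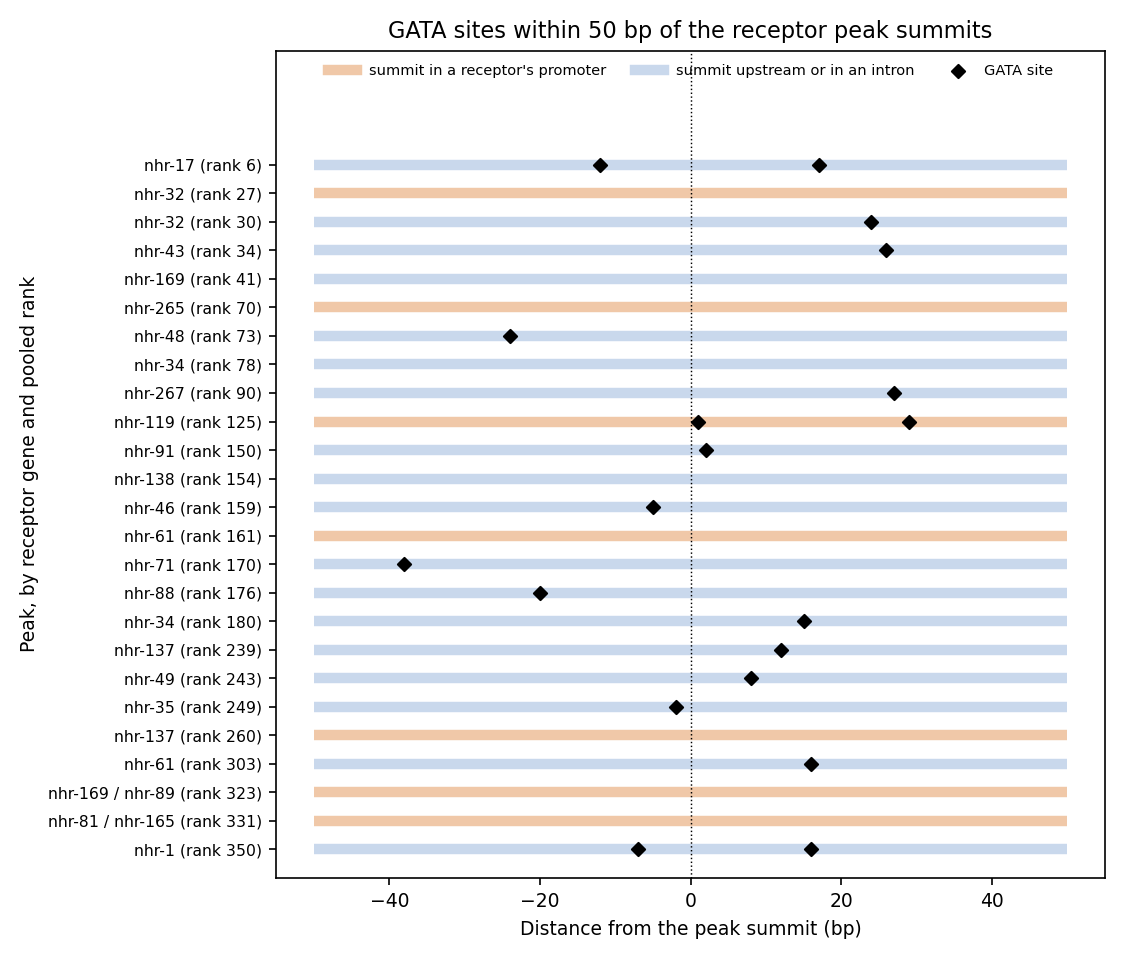
Centres of GATA sites (diamonds) by distance in bp from the summit, in windows of 50 bp on each side of the 25 receptor peaks, ordered by pooled rank. Orange bars are the 7 peaks in a receptor's promoter, with sites at nhr-119 alone, and blue bars the 18 upstream or intronic peaks, of which 15 hold a site.

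Receptors on X held peaks most often, in 8 of 22 genes (36.4%) with 10 distinct peaks, where 4.25% of all protein-coding genes of X did. The shares were 6 of 22 on I (27.3%, background 2.57%), 3 of 15 on II (background 2.29%) and 5 of 33 on IV (15.2%, background 2.16%). Receptors on X were also the longest, which widens the interval searched. Their median length was 4402 bp, against 2070 bp on II to 3535 bp on IV for the other chromosomes. These shares rest on few genes, and no test was made between chromosomes. On III 0 of 8 receptors held a peak (background 1.78%), which allows a share of up to 37.5%, and the strongest region there had a signal of 20.1, at nhr-20. Promoter peaks were found in 4 of 22 genes on I (background 0.869%), 2 of 15 on II (0.812%) and 2 of 22 on X (1.25%). On IV 0 of 33 genes had a promoter peak, where 0.701% of all genes did, so this 0 is no departure from the background, and 11 had any ranked promoter region.

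Some receptors lie in runs, and a run on I, picked after its values were seen, held all 4 receptors of that chromosome with a promoter peak. Between 12245456 and 12443780, the 9 genes nhr-82, nhr-265, nhr-81, nhr-165, nhr-217, nhr-77, nhr-174, nhr-89 and nhr-169 included 5 with a peak and 4 with a promoter peak, from 4 distinct peaks. None of these 4 peaks had a GATA site within 50 bp. Another run on I, of 6 genes from nhr-74 to nhr-245, had 0 with a peak, and so did the run of 5 from nhr-122 to nhr-274 on IV and the run of 4 from nhr-72 to nhr-166 on II. The remaining runs had 2 of 6 genes with a peak, from nhr-34 to nhr-4 on IV, and 1 of 5, from nhr-17 to nhr-27 on X. Neighbours share regions, so they are not independent: of the 396 distinct regions of the receptors, 25 counted for more than 1 gene. Within 10 kb of another receptor start lay 29 of the 100 genes, 7 with a peak, and 15 of the other 71 had one.

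Below the threshold the receptors still held a larger share of the strong regions than of the weak ones. Their regions were 25 of the 297 outside V in the thresholded list (8.42%) and 36 of the 527 from rank 352 to rank 1000 (6.83%). The share was 1.70% from there to rank 5000, 1.43% on to rank 15000 and 1.35% on to rank 30000. Of all 396 distinct receptor regions 25 were in the thresholded list (6.31%), against 1.22% of the ranked regions outside V. A region of rank 1000 or better lay in the interval of 37 receptors, against 7.34% of all protein-coding genes outside V. GATA sites occurred in 14 of those 36 regions (38.9%) and in 29.4% of all 527.

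The regions nearest to the threshold show how close the call was for some genes. Just inside were the upstream peak of nhr-1 (24.6, rank 350), the promoter peak of nhr-81 (25.1, rank 331) and that shared by nhr-169 and nhr-89 (25.4, rank 323). Just outside were regions 2495 bp and 4685 bp upstream of nhr-46 (24.2 and 23.8), in an intron of nhr-22 (23.4) and 1461 bp upstream of nhr-74 (22.7).

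Among receptors without a peak, the strongest promoter regions were at nhr-74 (22.5), nhr-19 (20.1), nhr-77 (19.4), nhr-3 (19.2) and nhr-66 (18.8), all between ranks 428 and 639. The first, 745 bp upstream of nhr-74 on I, was at 1.77-fold in replicate 1 and 2.29-fold in replicate 2, a mean of 2.03 ± 0.371-fold (SD, n = 2). That of nhr-3 on X was at 2.51-fold and 2.09-fold, a mean of 2.30 ± 0.30-fold. Those of nhr-77 and nhr-66 held a GATA site within 50 bp of the summit and the other 3 did not. The next 5, at nhr-72, nhr-235, nhr-20, nhr-264 and nhr-38, had signals from 9.88 to 13.8, and 4 of them lacked a matching summit in 1 replicate.

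Other receptors and genes that act with receptors were set beside these. Of nhr-23, nhr-25, daf-12, unc-55, odr-7, sex-1 and fax-1, the molting regulator nhr-23 had a promoter peak and nhr-25, which acts in epidermal development, had peaks elsewhere, its strongest in an intron (pooled signal 45.02). The peak of nhr-23 was close to the threshold (pooled signal 24.7, rank 344). It stood at 3.57-fold in replicate 1 (rank 278) and 1.42-fold in replicate 2 (rank 4631). The strongest regions of the 5 without a peak had signals from 7.17 at odr-7 to 16.9 at daf-12. That of daf-12 had no matching summit in either replicate, and those of unc-55, odr-7, sex-1 and fax-1 had one in replicate 2 alone. Of the 167 nhr- genes on V, 12 had a peak from 5 kb upstream to the gene end (7.19%) and 7 in the promoter (4.19%). The shares of all genes outside V were 2.58% and 0.848%. The shares of all genes on V are not given here, so these receptors were not set against their own chromosome. Of 8 genes for receptor partners and hormone synthesis, which include daf-36 and dhs-16 on V, 2 had a peak (2.58% of genes outside V). These were mdt-15, a Mediator subunit that works with NHR-49, 2702 bp upstream (47.8, 4.85 ± 1.01-fold, SD, n = 2), and cbp-1, the CBP and p300 coactivator, in its promoter (35.9, 3.29 ± 0.112-fold). The hormone synthesis genes daf-9, daf-36, hsd-1, strm-1 and dhs-16 and the corepressor gene din-1 had none, and daf-9 had no ranked region.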

How the data were processed

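The authors deposited narrowPeak lists on ce11, whose signal column gives the values used. Per the listing deposited with the files, regions were ranked from each replicate's alignments and from those of both replicates, each with a control, and a list was thresholded by the irreproducible discovery rate. For aligner, peak caller, threshold and control strain, the record is: not given in the sources used here. Lists on ce10 were not used, and no coordinates were converted. No region ran past a chromosome's end in the WBcel235 reference, the assembly of ce11, genes came from Ensembl release 115, and sequence letters from the RefSeq copy of that assembly.

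Signal has a separate scale in each list, so it was compared within a list, or as a fold over that list's median region. A replicate's value is its nearest summit within 100 bp. Read depth is unknown, so exact (Clopper-Pearson) 95% intervals cover the counting of genes or regions only. Upper limits for a count of 0 are not exact intervals but 3 divided by the number of genes or regions counted. Steps were tested on simulated data. Python 3.11.15, pandas 2.3.3 and scipy 1.17.1 were used. Named genes are the receptors with a peak, the 10 others with the strongest promoter regions, the role lists, and neighbours that share a peak. The receptors and all lists were chosen with earlier results of these data known. No test was made between conditions, as there was 1 group.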

Additional observations from a re-analysis of the deposited data

How the results depend on the processing

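The number of receptors with a promoter peak was 8 (0.848% of all genes outside V). It moved to 5 with the shorter promoter of 500 bp before to 100 bp after the start (0.507%). With the first 175 peaks it was 4 (0.387%), without replicate 1 it was 5 (0.828%) and without replicate 2 it was 6 (0.801%). It was 7 by nearest gene start (0.714%), 9 by overlap of 1 bp (0.888%) or by any transcript start (0.935%), and 11 with the wider window (1.18%). The number with a peak from 5 kb upstream to the gene end moved from 22 (2.58%) to 14 with the first 175 peaks (1.36%). It stayed between 16 with 2 kb upstream (1.71%) and 27 with 10 kb upstream (4.11%) otherwise. Without replicate 1 it was 17 (2.9%), and it was 20 without replicate 2 (2.61%) or by nearest gene start (1.44%). As a fold over its list's median region, the median strongest promoter region was 1.17, and 1.22 to 1.44 when a replicate was left out. The GATA share of receptor peaks fell from 64.0% to 40% with AGATAA alone, and was 44% with the whole site within 25 bp, 68% within 100 bp and 50% to 56.5% when a replicate was left out. The median fold of the peaks was 3.54, and 2.67 to 4.45 with 1 replicate. Fewer peaks or letters entered by construction in the settings with the first 175 peaks and with AGATAA alone. A narrower window lies inside the main one, so its count or GATA share cannot rise, and that of a wider window cannot fall. The cause of the other shifts was not tested. No paired analysis was possible because there is 1 group. Unknown read depth limits all of these values.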
